A study of Mus musculus with 6 samples.

Results

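The genes described here encode the proteasome, its caps and its assembly factors. They were taken as every single gene symbol of the array annotation that starts with Psm, goes on with a letter from a to g and ends in a number. This gave 47 genes of 18193 named on the array, read by 100 of its 45037 probe sets. Each gene was represented by its brightest probe set. Psme2, a subunit of the interferon-inducible activator cap, shares its probe set with a second symbol in the annotation and was not counted among them.

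The proteasome is the main protease of the cytosol and nucleus. Proteins tagged with ubiquitin are bound by a regulatory cap, the 19S particle, whose ring of ATPases unfolds them and threads them into a barrel, the 20S core, whose inner beta subunits cut them. Interferon signalling and many leukocytes make the immunoproteasome, in which the catalytic subunits Psmb5, Psmb6 and Psmb7 give way to Psmb8, Psmb9 and Psmb10. Erythroblasts destroy much of their proteome on the way to the red cell, and the proteasome does a large part of that work.

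The cells were CD71+ Ter119+ erythroid progenitors (CD71 imports iron-loaded transferrin and Ter119 marks the erythroid surface) from the bone marrow of 6 female mice aged 6 weeks. The 3 control mice were Bcl11a +/+. The 3 knockout mice were Bcl11a fl/fl EpoR-Cre+, so that Cre, driven by the erythropoietin receptor gene, removed the floxed part of Bcl11a, a repressor of embryonic globin genes, in erythroid cells. The labels name Cre for the knockouts only, and Cre or the altered receptor allele cannot be told apart from the loss of Bcl11a. Each mouse gave 1 Affymetrix array.

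The arrays had median intensities between 67.5 and 70.9, and Pearson's r between pairs of arrays, over all probe sets on the log2 scale, was 0.981 to 0.986 within a group and 0.980 to 0.983 across groups. Erythroid markers were bright, with all 6 measured at or above percentile 88.7 of all probe sets. All 8 neutrophil markers were also bright, at percentile 97.4 or above, and the RNA thus held transcripts of another cell type. In bulk RNA, fewer cells of a type and less RNA per cell cannot be told apart. The 7 probe sets of Bcl11a had log2 changes from -0.40 to 0.32 and none passed the test; their place relative to the deleted part is not stated by any label, and they therefore give no check of the genotypes. The arrays carried no detection calls and no batch labels. In all, 66 probe sets passed the test of knockout against control (limma, Benjamini-Hochberg adjusted p threshold of 0.05), and 63 of them were higher.

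No proteasome gene passed that test, where 0.147% of all probe sets did. At an unadjusted p threshold of 0.05, 7 of the 47 passed in limma, 6 higher and 1 lower in the knockout, against 12.4% of all probe sets and 18% of the genes among the brightest 25% of probe sets. A share of 7 in 47 is near that background. With an intensity trend and robust moderation of the variances, an alternative that called 3.21% of all probe sets, 4 of the 47 passed, all higher: Psmd10, Psmc2, Psme3 and Psmd2. Among the brightest 50% of probe sets, of which 3.79% were called, 1 of 45 passed, Psmd10. When the fit was limited to the brightest 25% of probe sets, which called 14.7% of them, 7 of 44 passed: these 4 with Psmc5 and Psmc6, higher, and Psmb8, lower.

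The differences were small. Log2 changes here are knockout minus control on the scale log2(intensity + 16). Over all 47 genes they ran from -0.58 to 0.47 with a median of 0.10, beside a median of -0.0012 over all 18193 genes and 0.01 over the genes among the brightest 25% of probe sets. Of the 47, 31 were above 0 and 16 below. The median was -0.24 for the 3 immunoproteasome subunits and 0.03 for the 14 standard subunits of the core. It was 0.19 for the 17 subunits of the 19S cap with a Psm symbol. In 22 genes every knockout mouse lay above every control mouse, and in 7 every knockout mouse lay below. Among genes in the brightest 25% of probe sets such separation was seen in 22.7% for higher and 13.6% for lower, and among all probe sets in 10.6% and 8.91%.

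**Figure D1:**
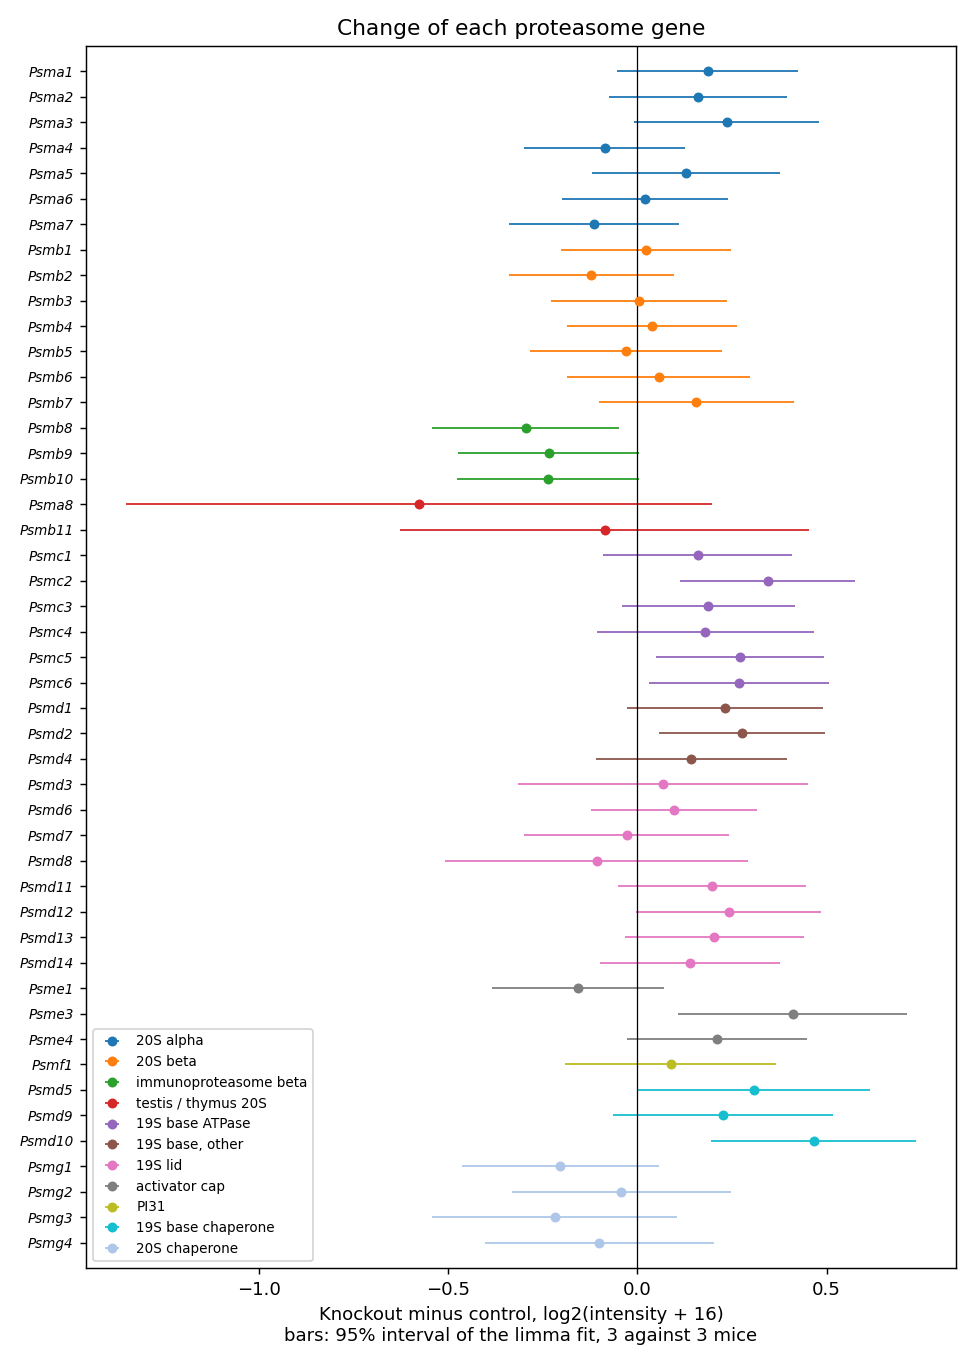
Log2 change of each of the 47 genes (horizontal axis, knockout minus control, 3 mice each) with its 95% interval from the limma fit, coloured by class. The 9 subunits of the 19S base with a Psm symbol all lie to the right of 0. The 3 immunoproteasome subunits lie to the left, and most intervals include 0.

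Most of these genes were bright, with a median percentile of 94.6, and the level of the whole family moved with the scaling of the arrays. After quantile normalization the median over the 47 genes was 0.01, with 25 above 0 and 22 below, and that of the core was -0.08. The median of the cap was 0.09 and that of the immunoproteasome -0.32 under the same scaling. The order of the 3 classes was thus kept, while the sign of the core was not. Single genes moved with it by over 1.5 times. In the base, Psmc2 was at 0.22, Psmc6 at 0.15, Psmd1 at 0.14 and Psmd4 at 0.042 after quantile normalization, and in the lid Psmd13 was at 0.13 and Psmd11 at 0.070. In the core Psma3 was at 0.12, Psma1 at 0.061, Psma2 at 0.034, Psmb7 at 0.085, Psmb2 at -0.20 and Psmb5 at -0.12. Among the activators and the inhibitor Psme4 was at 0.12, Psme1 at -0.27 and Psmf1 at 0.020.

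The ATPases of the 19S base unfold substrates and open the gate of the core. All 6 had log2 changes above 0, from 0.16 to 0.34. In 5 the groups did not overlap, with the knockout higher, beside 22.7% of the genes among the brightest 25% of probe sets. After quantile normalization 4 did not overlap, beside 17% of those genes. Psmc2 had intensities of 3999, 3943 and 4129 in the control mice and 4827, 5185 and 5334 in the knockout mice. All 3 knockout mice lay above the controls, by a log2 change of 0.34 ± 0.10 (SE, limma adjusted p = 0.255). Its second bright probe set had a change of 0.26. Psmc5 had intensities of 1235, 1331 and 1297 in the control mice and 1558, 1529.7 and 1585 in the knockout mice, and Psmc6 had intensities of 3622, 3528 and 3506 in the control mice and 3979, 4527 and 4354 in the knockout mice. Neither gene's groups overlapped, and the log2 changes were 0.27 ± 0.09 (adjusted p = 0.326) and 0.27 ± 0.10 (adjusted p = 0.356). Psmc3 and Psmc1 had changes of 0.19 and 0.16, also without overlap. Psmc4, at 0.18, was the ATPase whose groups overlapped, since control mouse 2 read 2239, above knockout mouse 3 at 2135. The second bright probe set of Psmc4 was at -0.03, with overlap, and that of Psmc6 at 0.36, without.

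The other subunits of the base hold the ring and receive ubiquitin. Psmd2, a scaffold that docks ubiquitin-like domains, had intensities of 1743, 1708 and 1807 in the control mice and 2084, 2119 and 2176 in the knockout mice. These groups did not overlap, and the log2 change was 0.28 ± 0.09 (SE, adjusted p = 0.317). Psmd1, the other large scaffold, had intensities of 2472, 2104 and 2303 in the control mice and 2544, 2739.9 and 2795 in the knockout mice, a change of 0.23 ± 0.11 (adjusted p = 0.447) and again no overlap. Psmd4, a ubiquitin receptor, had intensities of 3272, 2786 and 3116 in the control mice and 3393, 3449 and 3265 in the knockout mice. Its change was 0.14 ± 0.10 (adjusted p = 0.633), and control mouse 1 lay just above knockout mouse 3; without control mouse 2 the change was 0.077.

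Subunits of the lid, which removes ubiquitin chains from bound substrates, were more mixed. Of 8 with a Psm symbol, 6 had changes above 0, and the median was 0.12. In 5 the groups did not overlap, all with the knockout higher, beside 22.7% of the genes among the brightest 25% of probe sets. After quantile normalization 2 did not overlap, beside 17% of those genes, and the median was 0.03. Psmd12, a structural subunit, had intensities of 1813, 1868 and 1964 in the control mice and 2064, 2310.3 and 2312 in the knockout mice. The knockout mice lay above the controls, with a change of 0.24 ± 0.10 (SE, adjusted p = 0.408). Psmd13 had intensities of 1122, 1106 and 1143 in the control mice and 1223, 1281 and 1390.0 in the knockout mice, and Psmd11, which clamps the lid to the core, had intensities of 4335, 4015 and 4101 in the control mice and 4417, 4768 and 5115 in the knockout mice. Both were again higher in all 3 knockout mice, at 0.20 ± 0.10 (adjusted p = 0.464) and 0.20 ± 0.10 (adjusted p = 0.497). Psmd14, the deubiquitinating enzyme of the lid, had a change of 0.14, and Psmd6 one of 0.10. Psmd3 (0.07), Psmd7 (-0.03), the partner of Psmd14, and Psmd8 (-0.11) had groups that overlapped. Psmd8 varied widely within groups, with a mean of 4675 ± 801 in the controls (SD, n = 3).

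Over the 17 cap genes with a Psm symbol, 15 had a change above 0. In 12 the groups did not overlap, all with the knockout higher, beside 22.7% of the genes among the brightest 25% of probe sets. Sem1, a lid subunit without a Psm symbol, is not in these counts and was at 0.0056 with overlap. After quantile normalization 15 of 17 were again above 0, and 8 did not overlap; 17% of the genes among the brightest 25% of probe sets did so, with the knockout higher, under that scaling. Without control mouse 2, whose erythroid markers were the lowest of the 6 mice, 15 were above 0, 14 had every knockout mouse above the remaining controls and 1 had them below, where 26.9% and 18.2% of the bright genes did. The median was then 0.19.

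Assembly of the base has its own chaperones, which hold ATPases until the ring closes. All 3 stood higher without overlap, beside 22.7% of the genes among the brightest 25% of probe sets. Their median was 0.31, and 0.21 without knockout mouse 3. After quantile normalization 2 of the 3 did not overlap, beside 17% of those genes, and the median was 0.22. Psmd10, or gankyrin, had intensities of 907, 790.1 and 818 in the control mice and 1061, 1193 and 1238 in the knockout mice. This was the largest change above 0 among the 47 genes, 0.47 ± 0.11 (SE, adjusted p = 0.217, 95% interval from 0.19 to 0.74), and all 3 knockout mice lay above the controls. The ratio of its mean intensities was 1.39. Psmd5 had intensities of 1905, 1709 and 1781 in the control mice and 1961, 2211 and 2544 in the knockout mice, a change of 0.31 ± 0.13 (adjusted p = 0.403) with a wide spread among the knockouts. Psmd9 had intensities of 452, 469 and 474 in the control mice and 510.3, 506 and 633 in the knockout mice, at 0.23 ± 0.12 (adjusted p = 0.501), with knockout mouse 3 well above the other mice; without it the change was 0.12.

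**Figure D2:**
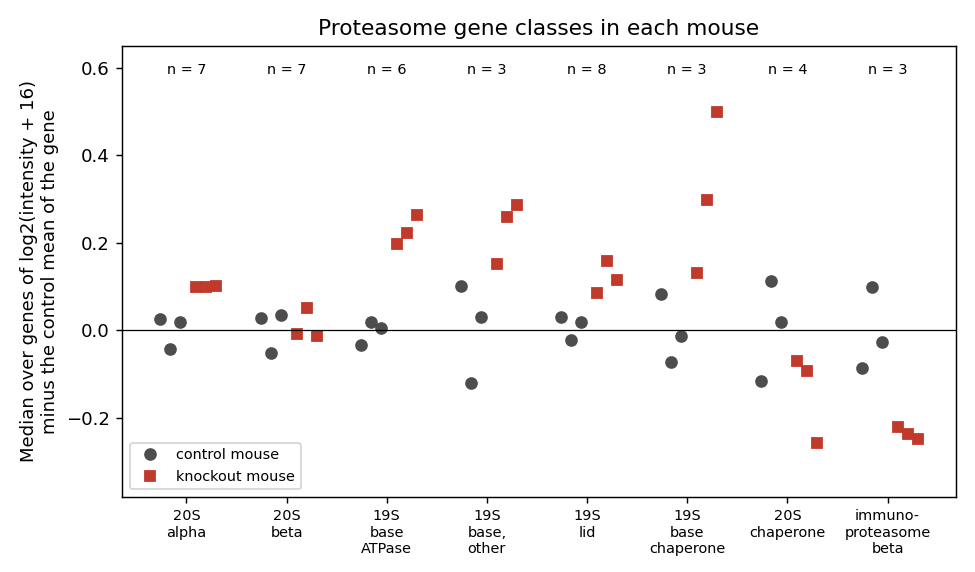
Each point is 1 mouse: the median over the genes of a class of log2(intensity + 16), after the control mean of each gene was subtracted (vertical axis); n is the number of genes. In the ATPases the knockout mice sit between 0.20 and 0.26 and the controls between -0.03 and 0.02, and in the immunoproteasome the knockouts sit between -0.25 and -0.22.

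The chaperones that build the 20S core did not share this direction. All 4 had changes below 0, with a median of -0.15. Without control mouse 2 it was -0.09, with 1 gene above 0. None had groups without overlap. Psmg1 had intensities of 817, 946 and 899.9 in the control mice and 824, 735 and 745 in the knockout mice, and Psmg3 had intensities of 282, 341 and 268 in the control mice and 236, 283 and 238 in the knockout mice. In both the knockout mice were mostly lower, but knockout mouse 1 of Psmg1 and knockout mouse 2 of Psmg3 lay within the control range. Their changes were -0.20 ± 0.11 (SE, adjusted p = 0.499) and -0.22 ± 0.13 (adjusted p = 0.559). Psmg3 was at -0.12 without control mouse 2. Psmg4 was at -0.10 ± 0.13 (adjusted p = 0.792) and Psmg2 at -0.04. Leaving out 1 mouse moved Psmg4 to -0.018 (knockout mouse 3), -0.050 (control mouse 2), -0.16 (control mouse 1) or -0.18 (knockout mouse 1).

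The alpha rings form the outer faces of the core and its gate. Of 7 alpha subunits, 4 had all knockout mice above all controls and 2 had all of them below. Such separation was seen in 22.7% and 13.6% of the genes among the brightest 25% of probe sets. Psma3 had intensities of 3148, 3641 and 3453 in the control mice and 3978, 4112 and 3959 in the knockout mice. Its change of 0.24 ± 0.10 was the largest in the core (SE, adjusted p = 0.417). Psma1 had intensities of 5215, 4687 and 5226 in the control mice and 5550.3, 5709.9 and 5936 in the knockout mice, and Psma2 had intensities of 3963, 3669 and 3975 in the control mice and 4145, 4544 and 4282 in the knockout mice. They too were higher without overlap, at 0.19 ± 0.10 (adjusted p = 0.504) and 0.16 ± 0.10 (adjusted p = 0.559), as was Psma5 at 0.13. Psma7 (-0.11) and Psma4 (-0.09) were lower without overlap, and Psma6 was at 0.02. These subunits sit in the same ring, and the sign of the change differed among its transcripts. None of the 7 passed the test, at the adjusted or the unadjusted threshold. Whether the subunits differ from each other in their change was not tested. After quantile normalization none of the 14 core genes had all knockout mice above all controls, and 6 had them below, beside 17% and 23.6% of the genes among the brightest 25% of probe sets.

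The 7 standard beta subunits had a median of 0.02, with 1 higher and 1 lower without overlap. Among the genes in the brightest 25% of probe sets these shares were 22.7% and 13.6%, and the beta subunits did not stand out from them. Psmb2, a structural subunit, had intensities of 1835, 1725 and 1807 in the control mice and 1644, 1659 and 1624 in the knockout mice. The knockouts lay below the controls, with a change of -0.12 ± 0.09 (SE, adjusted p = 0.636). The structural subunits Psmb1, Psmb3 and Psmb4 had changes of 0.02, 0.0043 and 0.04, all with overlap. The 3 catalytic subunits are described beside their replacements.

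**Figure D3:**
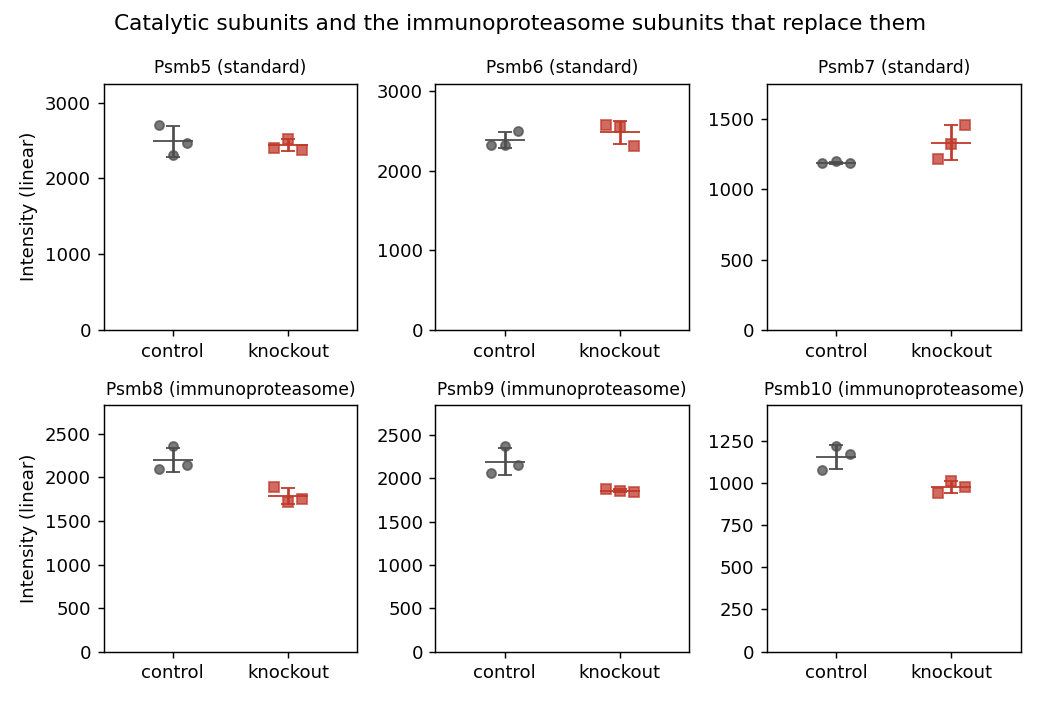
Linear intensities (vertical axes, from 0) of the standard catalytic subunits (top) and of the immunoproteasome subunits that replace them (bottom), in 3 control (circles) and 3 knockout mice (squares); lines are means and bars SDs. In the bottom row every knockout mouse lies below every control mouse.

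The immunoproteasome subunits stood lower in the knockout, all 3 without overlap. Psmb8, the counterpart of the chymotrypsin-like subunit Psmb5, had intensities of 2102, 2356 and 2140.4 in the control mice and 1896, 1722 and 1749 in the knockout mice. Control mice averaged 2199 ± 137 and knockout mice 1789 ± 93.4 (SD, n = 3), and the log2 change was -0.29 ± 0.10 (SE, adjusted p = 0.333). Psmb9, which replaces the caspase-like subunit Psmb6, had intensities of 2065, 2369 and 2151 in the control mice and 1879, 1857 and 1842 in the knockout mice, and the 3 knockout mice were nearly level. Psmb10, which replaces the trypsin-like subunit Psmb7, had intensities of 1076, 1217 and 1175 in the control mice and 942, 1012 and 978 in the knockout mice. Their changes were -0.23 ± 0.10 (adjusted p = 0.411) and -0.24 ± 0.10 (adjusted p = 0.410). None of the 3 passed the test. Separation with the knockout lower was seen in 13.6% of genes among the brightest 25% of probe sets. All 3 were again separated after quantile normalization, beside 23.6% of those genes, and after cyclic loess normalization, beside 21.2%.

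Among the standard counterparts, Psmb5 had intensities of 2709, 2306 and 2462 in the control mice and 2407, 2525 and 2374 in the knockout mice. The groups overlapped, and the change was -0.03 ± 0.10, with a 95% interval from -0.28 to 0.22 (limma adjusted p = 0.936). Psmb6 had intensities of 2328, 2329 and 2503 in the control mice and 2582, 2555 and 2315 in the knockout mice, also with overlap, a change of 0.06 ± 0.10 and an interval from -0.18 to 0.30; its change was -0.04 after quantile normalization and -0.01 after cyclic loess normalization. Psmb7 had intensities of 1186, 1199 and 1187 in the control mice and 1214, 1323 and 1461 in the knockout mice. It was higher in each knockout mouse, by 0.16 ± 0.11 (adjusted p = 0.599), from controls that were nearly level, and by 0.089 without knockout mouse 3.

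Within each mouse, the log2 value of an immunoproteasome subunit minus that of its counterpart gives the unequal part of their change. For Psmb10 minus Psmb7 this difference averaged -0.04 ± 0.08 over the control mice and -0.44 ± 0.12 over the knockout mice (SD, n = 3), a shift of -0.39. For Psmb9 minus Psmb6 the shift was -0.29. In both pairs every knockout mouse lay below every control mouse, and the exact two-sided permutation p was 0.1, the smallest that 3 against 3 mice allow (0.15 after adjustment over the 3 pairs). For Psmb8 minus Psmb5 the shift was -0.26, and the groups overlapped (exact permutation p = 0.2, adjusted 0.2). That shift was -0.16 without control mouse 2.

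The classes can be set against each other within each mouse, each gene taken relative to its control mean. The median of the cap minus that of the core was -0.03, 0.02 and -0.01 in the control mice and 0.11, 0.13 and 0.24 in the knockout mice. The median of the cap minus that of the immunoproteasome was 0.08, -0.12 and 0.04 in the controls and 0.35, 0.43 and 0.48 in the knockouts. In both differences the 3 knockout mice lay above the 3 controls.

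Promoter sequences of the genes on which these comparisons turn are given next. Antioxidant response elements, read here as the letters TGACNNNGC, are bound by the factors Nfe2l1 and Nfe2l2 with small Maf proteins, and are known to drive proteasome genes. STAT sites, read as TTCNNNGAA, take part in the interferon response and in other signals. The sequences below are the bases before the RefSeq start of each gene in GRCm38.p6, 5′ to 3′ on the gene's strand, in lower case with the named letters on either strand in capitals. Psmc6 (chr14:45329574-45329823, plus strand) is shown for the ATPases and holds both an antioxidant response element and an ETS site, CCGGAAG. No other ATPase gene with a promoter sequence here held an antioxidant response element. Psmb5 (chr14:54617996-54618245, minus strand), with an antioxidant response element, and Psmb8 (chr17:34197945-34198194, plus strand), with a STAT site, are shown as a pair of replaced and replacing subunits.
Psmc6: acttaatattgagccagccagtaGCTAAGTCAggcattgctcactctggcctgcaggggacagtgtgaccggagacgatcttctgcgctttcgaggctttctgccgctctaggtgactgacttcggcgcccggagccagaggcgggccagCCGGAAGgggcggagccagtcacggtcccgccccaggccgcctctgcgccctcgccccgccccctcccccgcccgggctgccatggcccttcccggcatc
Psmb5: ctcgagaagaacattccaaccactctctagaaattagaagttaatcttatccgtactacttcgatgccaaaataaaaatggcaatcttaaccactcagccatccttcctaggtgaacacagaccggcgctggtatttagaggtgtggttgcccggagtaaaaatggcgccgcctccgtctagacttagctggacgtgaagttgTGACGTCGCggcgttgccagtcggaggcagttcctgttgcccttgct
Psmb8: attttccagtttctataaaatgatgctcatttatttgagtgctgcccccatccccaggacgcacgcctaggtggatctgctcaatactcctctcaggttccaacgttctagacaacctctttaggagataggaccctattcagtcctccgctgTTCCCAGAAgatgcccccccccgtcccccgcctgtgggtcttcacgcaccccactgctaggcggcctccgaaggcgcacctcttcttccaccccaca

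Psmb9 and Tap1, a peptide transporter of antigen presentation, start on opposite strands with 225 bases between them, and the bases between their starts (chr17:34187331-34187555, minus strand, read from Tap1 towards Psmb9) are shown since both genes were measured. Tap1 had intensities of 527, 792 and 583 in the control mice and 631, 575 and 601 in the knockout mice, a change of -0.05 ± 0.17 (SE, limma adjusted p = 0.931) with overlap, beside -0.23 for Psmb9. Whether these changes differ was not tested. Psmd10 (chrX:140956712-140956961, minus strand) is shown as the gene with the largest change above 0. Capitals mark CCAAT boxes, and in Psmd10 also the ZNF143 motif, an element of bidirectional and housekeeping promoters.
Psmb9: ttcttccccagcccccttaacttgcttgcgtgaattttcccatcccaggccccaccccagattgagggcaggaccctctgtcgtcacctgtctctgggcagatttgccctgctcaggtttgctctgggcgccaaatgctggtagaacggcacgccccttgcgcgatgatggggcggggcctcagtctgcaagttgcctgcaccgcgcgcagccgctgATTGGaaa
Psmd10: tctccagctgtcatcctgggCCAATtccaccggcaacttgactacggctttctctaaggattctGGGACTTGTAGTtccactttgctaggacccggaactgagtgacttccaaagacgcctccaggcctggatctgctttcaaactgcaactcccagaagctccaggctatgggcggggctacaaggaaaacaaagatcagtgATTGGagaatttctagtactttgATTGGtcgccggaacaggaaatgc

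Of the 47 genes, 39 were matched to a window in the RefSeq promoter table used here. Within the 250 bases before the start, on both strands, TGACNNNGC stood in 5 of the 39 (Psmb5, Psmb6, Psmc6, Psmd9 and Psmd12), beside 11.5% of all genes with a promoter in the table. Their changes ran from -0.03 to 0.27. TTCNNNGAA stood in Psmb8 and Psmg1, or 5.13% of the 39, beside 8.13% of all genes, and both had changes below 0. The interferon-stimulated response element stood in Psmb3, Psmd4 and Psmd9, beside 3.46% of all genes, and in none of the immunoproteasome windows. CCGGAAG stood in 12 of the 39, or 30.8%, beside 7.83% of all genes, among them Psmc1, Psmc2, Psmc6, Psmd2, Psmd4 and Psme3; their median change was 0.20, and Psmg1, at -0.20, was the 1 of them below 0. CCAAT stood in 14, or 35.9%, beside 37.5% of all genes. The ZNF143 motif stood in Psmd10 and Psmd11, beside 1.92% of all genes, and AAGATGGC, the letters of YY1 sites, in none, beside 1.83%. A match is a description of the letters and does not show binding.

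Activator caps other than 19S open the core without ATP. Psme3, the nuclear activator PA28 gamma, had intensities of 4946, 3899.9 and 4260.0 in the control mice and 5712, 5454 and 6207 in the knockout mice. This was the second largest change above 0 of the 47 genes, 0.41 ± 0.13 (SE, adjusted p = 0.292), with no overlap, and its second bright probe set had a change of 0.32. Psme4, the activator PA200, known for histone degradation, had intensities of 2254, 2099 and 2282 in the control mice and 2616, 2654 and 2418 in the knockout mice, at 0.21 ± 0.10 (adjusted p = 0.449) and without overlap. Psme1, the alpha subunit of the interferon-inducible activator, went the other way, with intensities of 4285, 4234 and 4145 in the control mice and 3978, 3606 and 3781 in the knockout mice. Its change was -0.16 ± 0.09 (adjusted p = 0.552), and all 3 knockout mice lay below the controls, as for the immunoproteasome subunits. Psmf1, the proteasome-binding protein PI31, had intensities of 1377, 1117 and 1245 in the control mice and 1287, 1281 and 1397 in the knockout mice, a change of 0.09 ± 0.12 (adjusted p = 0.806) with overlap. It was at 0.012 without control mouse 2, 0.16 without control mouse 1 and 0.048 without knockout mouse 3. A dimmer probe set of it had 0.42 without overlap (adjusted p = 0.217).

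Core subunits of other tissues were near the floor of the arrays. Psma8, the alpha subunit of germ cells, had intensities of 16.4 to 50.8 in the control mice and 6.43 to 23.0 in the knockout mice, at percentile 28.2 of all probe sets. Psmb11, the thymus subunit, had intensities between 1.00 and 11.9, at percentile 2.02. Their changes were -0.58 ± 0.32 and -0.09 ± 0.22 (SE, limma adjusted p = 0.519 and 0.912), both with overlap. Psma8 was at -0.33 without control mouse 3 and at -0.33 without knockout mouse 3, and the sign for Psmb11 turned without control mouse 3.

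In sum, pre-B, B cell and neutrophil markers were lower in the knockout beside the immunoproteasome. Psmb8, Psmb9 and Psmb10 summed to 82.3% to 85.0% of the control mean in the knockout mice and to 94.5% to 107% in the controls. The 6 measured markers of pre-B and B cells (of 7 listed, all above 0 in every mouse) summed to 62.9% to 84.6% in the knockouts and 89.9% to 106% in the controls. In intensities these sums were 7429 to 10000.4 and 10629.5 to 12523.5. All 6 had changes below 0; the pre-B genes Igll1 and Vpreb1 were at -1.31 and -1.19 (adjusted p = 0.136 and 0.168). Of the 8 neutrophil markers, 7 had changes below 0 and Elane was at 0.02. In 5 every knockout mouse lay below every control, beside 13.6% of the genes among the brightest 25% of probe sets, and 3 had overlap. The 8 neutrophil markers summed to 92.1% to 96.3% of the control mean in the knockouts and to 99.7% to 100.2% in the controls. The part of these cells in the immunoproteasome result was not tested. By mouse, the pre-B and B cell sums were 89.9%, 106% and 104% in the controls and 71.2%, 84.6% and 62.9% in the knockouts. The immunoproteasome sums of the same mice were 94.5%, 107% and 98.5% in the controls and 85.0%, 82.7% and 82.3% in the knockouts. The order of the 3 controls was the same in both sums, and that of the 3 knockouts was not. An order of 3 mice can arise by chance, and no relation between the sums was tested.

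Erythroid markers were higher in the knockout beside the 19S cap, in sum. The 6 measured (of 7 listed) summed to 109% to 118% of the control mean in the knockouts and to 90.5% to 108% in the controls, and the 17 cap genes summed to 110% to 114% and 96.2% to 102%. Of the 6, 4 had changes above 0 without overlap, among them Gata1 (0.70) and Klf1 (0.65), while Alas2 and Epor were at -0.06 and -0.14. The 14 core genes summed to 103% to 106% in the knockouts and 97.1% to 102% in the controls. Control mouse 2 had the lowest erythroid and cap sums and the highest immunoproteasome sum of the controls. The part of the erythroid share in the cap's values was not tested. Markers of macrophages (7 of 7 measured, median change 0.04), T and NK cells (4 of 6, 0.03) and dendritic cells (6 of 6, 0.15) had sums that overlapped between the groups.

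**Figure D4:**
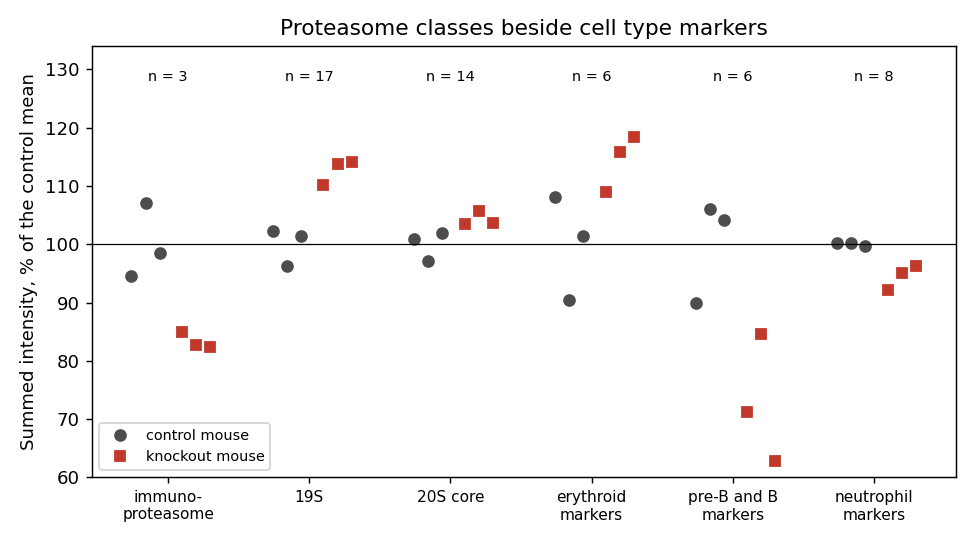
Summed intensity of the genes of a list in each mouse, as a percent of the mean of the control mice (vertical axis); n is the number of genes. The immunoproteasome and the pre-B and B cell markers are lower in the 3 knockout mice (82.3% to 85.0% and 62.9% to 84.6%), and the 19S cap and the erythroid markers are higher.

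Proteasome genes share a set of transcription factors. Nfe2l1 and Nfe2l2 are activators, Ngly1 processes Nfe2l1, the small Maf proteins are their partners and Bach1 competes for the same sites. Of 7 measured (of 8 listed), none passed, while 6 had changes above 0 and 5 had groups without overlap, all with the knockout higher, as in 22.7% of the genes among the brightest 25% of probe sets. At the unadjusted threshold 4 passed, beside 18% of those genes. The median was 0.36, and 0.22 without control mouse 1. Mafk had intensities of 1247, 879.7 and 1102 in the control mice and 1490.2, 1679 and 1559 in the knockout mice, a change of 0.56 ± 0.15 (SE, limma adjusted p = 0.243). Bach1 had intensities of 1656, 1558 and 1498 in the control mice and 1964, 2079 and 2116 in the knockout mice, at 0.38 ± 0.10 (adjusted p = 0.228). Both were higher in all 3 knockout mice, as was Nfe2l1, which had intensities of 349, 485 and 465 in the control mice and 546, 576 and 549 in the knockout mice. Its change was 0.36 ± 0.14 (adjusted p = 0.385), and that of Mafg 0.37 ± 0.15 (adjusted p = 0.400), where control mouse 1 reached the knockout range. Nfe2l2 and Ngly1 were at 0.16 and 0.18, and the dim Maff at -0.53.

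**Figure D5:**
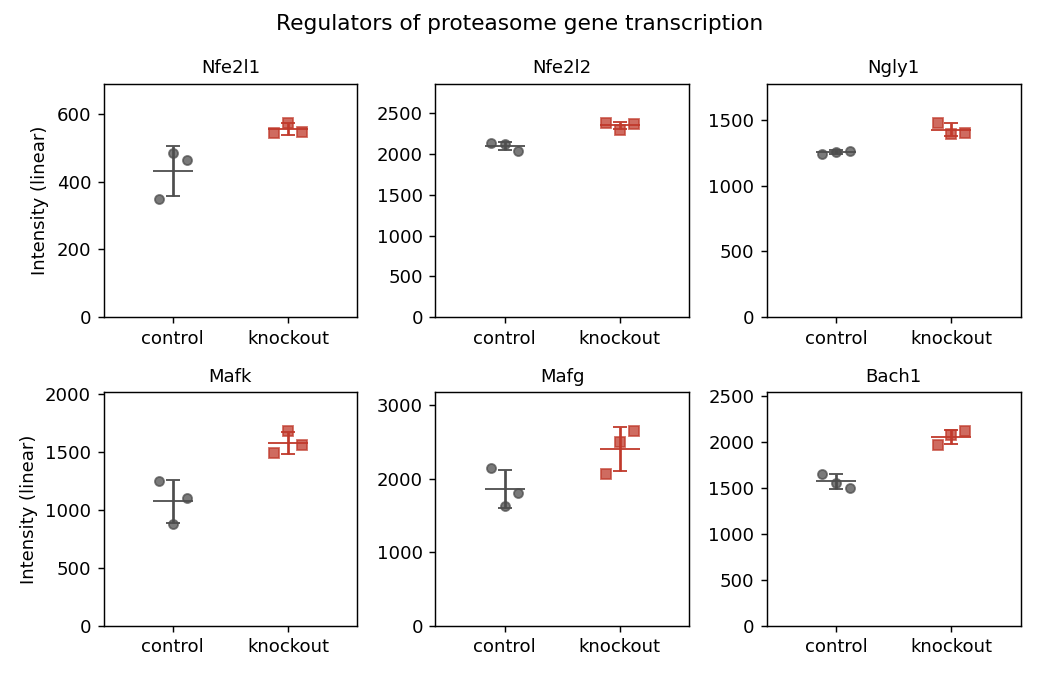
Linear intensities (vertical axes, from 0) of 6 regulators in 3 control (circles) and 3 knockout mice (squares); lines are means and bars SDs. All but Mafg show every knockout mouse above every control mouse.

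Other proteins bind the proteasome or deliver substrates to it. Of 16 measured (of 24 listed), none passed, 10 had changes above 0, and 6 had groups without overlap, all with the knockout higher, beside 22.7% of the genes among the brightest 25% of probe sets. The median was 0.08. Txnl1, a thioredoxin-like protein bound to the 19S cap, had intensities of 3972, 3808 and 4233 in the control mice and 5259, 5293 and 5443 in the knockout mice, a change of 0.41 ± 0.10 (SE, limma adjusted p = 0.207). Akirin2, which brings proteasomes into the nucleus, had intensities of 2616, 2332 and 2725 in the control mice and 3088, 3573 and 3481 in the knockout mice, at 0.40 ± 0.11 (adjusted p = 0.264). Both were higher in every knockout mouse. Ufd1, which feeds ubiquitinated proteins to the unfoldase Vcp, was at 0.36 ± 0.11 (adjusted p = 0.294) and Vcp itself at 0.27 ± 0.10 (adjusted p = 0.358). Pomp, the maturation factor of the core, was at -0.03, and Sem1, the smallest lid subunit, at 0.0056, both with overlap. Sem1 has no Psm symbol and was not counted among the lid or cap genes.

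Genes of antigen presentation by MHC class I, peptide loading and its transcriptional regulators Irf1 and Nlrc5 included, were near 0 as a list, with a median of -0.05 over 11 measured of 12 listed. None passed; 7 were below 0, and 3 of them had every knockout mouse below every control, beside 13.6% of the genes among the brightest 25% of probe sets. Irf1, an interferon-induced factor that drives immunoproteasome genes, had intensities of 1676, 1644 and 1626 in the control mice and 1473, 1340.1 and 1358 in the knockout mice, a change of -0.24 ± 0.09 (SE, limma adjusted p = 0.374). Pdia3, a chaperone of the loading complex, was at -0.22 ± 0.10 (adjusted p = 0.427), and Erap1, a peptide-trimming enzyme, at -0.23 ± 0.11 (adjusted p = 0.437), these 3 being the ones without overlap. Tap2, the partner of Tap1, was at -0.19 ± 0.11 (adjusted p = 0.511), with overlap. B2m, the light chain of class I, was at 0.0027, and H2-K1 and H2-D1 at 0.02 and 0.02.

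Further values came from the probe sets that were not used. The 26 genes with more than 1 probe set had 53 others, none of which passed, and 36 of them had the sign of the one used. Among the 20 others within the brightest 25% of all probe sets, 16 had the same sign. Psmb4 was at 0.04 by its brightest probe set and at 0.24 by another, and Psmb3 at 0.0043 and -0.11. Psmc4 was at 0.18 by its brightest probe set and at -0.03 by the other. Psmd11 was at 0.20 by its brightest probe set and at -0.01 by the next brightest, with further bright ones at 0.15. When a gene's probe sets were averaged instead of taking the brightest, Psmd13 was at 0.017, Psmd9 at 0.025, Psme4 at 0.029 and Psmd11 at 0.064. Psmc2 was at 0.15, Psmg3 at -0.14 and Psmg4 at -0.028 by that average, while Psmd4 (0.26), Psma1 (0.31) and Psmf1 (0.21) were farther from 0 than by the brightest probe set.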

How the data were processed

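The deposited values are linear probe set intensities. No label states whether or how the authors summarised and scaled them; array medians ran from 67.5 to 70.9. They were read as deposited, and log2(intensity + 16) was compared between 3 knockout and 3 control mice by lmFit and eBayes of limma (version 3.58.1, R version 4.3.3), with Benjamini-Hochberg adjustment over 45037 probe sets and a threshold of 0.05. A gene was the probe set with the highest mean among those with its symbol alone (34945 had 1 symbol, 932 several). The fit was tested on simulated data, where log2 changes of 2 and -2 were recovered in 98% of cases. Those of 1 and -1 were recovered in 66% and 58%. Smaller changes, such as those of the proteasome genes, were not simulated. The members and lists were chosen with earlier results of these data known. Named with values were the immunoproteasome genes and counterparts, the 3 lowest p-values of each other class and up to 4 of each pathway list; Gata1, Klf1, Igll1, Vpreb1 and other named markers were chosen after their values were seen. Exact permutation tests served the catalytic pairs. Alternatives were quantile normalization, median centring, cyclic loess (chosen after seeing the data), pseudocounts of 1 and 64, brightness filters, trend with robust moderation, array weights, the mean of all probe sets, a replicate block and leaving out each mouse. The number of arrays limits the precision.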

Additional observations from a re-analysis of the deposited data

How the results depend on the processing

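No proteasome gene passed with quantile normalization, median centring, cyclic loess, either other pseudocount, array weights, the mean of all probe sets or any mouse left out; 1 passed among the brightest 50% of probe sets, 7 among the brightest 25% and 4 with trend and robust moderation. Over all probe sets the 66 calls became 38 with a pseudocount of 1, 558 with 64, 853 and 1654 among the brightest 50% and 25%, 1445 with trend and robust moderation, and 27 to 41 with a mouse left out. The median log2 change of all members, 0.10, was 0.014 after quantile normalization, 0.051 after cyclic loess (chosen after seeing the data), 0.13 among the brightest 50% and 0.13 among the brightest 25%, 0.067 with the mean of all probe sets, and 0.077 to 0.15 with a mouse left out, the highest without control mouse 3. The core's median, 0.03, was -0.079 after quantile normalization, -0.049 after cyclic loess and 0.10 with the mean of all probe sets. The cap's, 0.19, was 0.094 and 0.12 under those normalizations, and the immunoproteasome's -0.32 after quantile normalization. Among the 31 members chosen to be given with full values, the sign turned for Psmb6, Psmb5 and Psmb11. Psmb6 was at -0.035 after quantile normalization and -0.0084 after cyclic loess. Psmb5 ran from -0.084 to 0.031 with a mouse left out, above 0 without control mouse 1. Psmb11 ran from -0.21 to 0.15, above 0 without control mouse 3. Other core genes turned too: of the 14, 10 were above 0, 4 after quantile normalization and 5 after cyclic loess. The cause was not tested. The fits to the brighter sets adjusted over fewer probe sets and also had other variances (median residual SD 0.210 in all probe sets, 0.136 and 0.104 in the brighter sets). Deviations of same-numbered mice from their group means correlated at -0.03, -0.01 and -0.04 over all probe sets. Among the brightest 25% they correlated at -0.12, 0.04 and 0.01. With 3 mice in a group these values cannot settle whether the mouse numbers pair the samples. With the replicate block, 14 probe sets and 0 members passed.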
